A study of Mus musculus with 8 samples.

Results

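The genes described here are 34 genes of hypoxia and glycolysis: 17 glycolytic enzymes, 15 other targets of the hypoxia-inducible factors (HIFs) and the 2 HIF subunit genes Hif1a and Epas1. They were matched by gene symbol in the authors' deposited table, where 33 of them had at least 1 transcript cluster, the probe group of this array. Ankrd37, an ankyrin repeat gene induced by hypoxia, had no matching symbol and was not analysed here. The 33 genes held 43 of the 41345 clusters, since 8 genes had several, and the lowest cluster ID stood for a gene. Expression was measured in endometrium, the lining of the uterus, which was scraped from CBA x C57Bl/6 F1 females 8 h after mating with Balb/c males. The males were either Intact, giving exposure to seminal fluid, or SVX/VAS, without such exposure per the labels, which do not expand these letters. The platform was the Mouse Gene 2.0 ST array of Affymetrix. There were 4 arrays per group, and the RNA on each was pooled from 4 females, giving 16 females per group. Females mated on the night after proestrus, matings were watched on video in both groups, and a plug was looked for after Intact mating alone. The labels do not state the females' age, and no unmated group was analysed here.

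Cells break glucose down to pyruvate by glycolysis, and lactate dehydrogenase turns pyruvate into lactate, which leaves through monocarboxylate carriers. With oxygen present, the EGLN prolyl hydroxylases mark HIF alpha subunits for destruction. When oxygen is short, or when inflammatory signals raise the subunits' synthesis, HIF binds a core motif in DNA and switches on glucose carriers, glycolytic enzymes, carbonic anhydrases that handle acid, and brakes on pyruvate use by mitochondria. HIF activity is set largely at the protein level, which these arrays do not measure.

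The start regions of 4 genes are shown because Car9, Egln3 and Car12 were the 3 HIF targets with the smallest p between the groups and Hk2 was the glycolytic enzyme with the smallest p. Sequences are from RefSeq, build GRCm38.p6, 5′ to 3′ on the gene's strand, from 250 bases before to 50 bases after the annotated start. Capitals mark the HIF core motif, searched as the letters ACGTG or GCGTG on either strand. The windows are chr4:43506776-43507075 (plus strand) for Car9, chr12:54203825-54204124 (minus) for Egln3, chr6:82774405-82774704 (minus) for Hk2 and chr9:66713436-66713735 (plus) for Car12.
Car9: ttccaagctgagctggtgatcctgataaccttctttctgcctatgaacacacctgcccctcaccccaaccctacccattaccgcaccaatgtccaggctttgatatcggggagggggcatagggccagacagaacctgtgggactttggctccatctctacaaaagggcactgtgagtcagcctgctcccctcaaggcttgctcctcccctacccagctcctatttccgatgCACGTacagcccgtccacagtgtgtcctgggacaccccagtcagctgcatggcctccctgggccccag
Egln3: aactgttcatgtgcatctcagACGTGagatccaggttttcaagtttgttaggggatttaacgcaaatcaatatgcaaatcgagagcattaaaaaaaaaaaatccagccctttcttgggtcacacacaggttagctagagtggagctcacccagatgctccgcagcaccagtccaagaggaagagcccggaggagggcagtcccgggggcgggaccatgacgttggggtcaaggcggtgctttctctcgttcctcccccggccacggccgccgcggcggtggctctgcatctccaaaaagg
Hk2: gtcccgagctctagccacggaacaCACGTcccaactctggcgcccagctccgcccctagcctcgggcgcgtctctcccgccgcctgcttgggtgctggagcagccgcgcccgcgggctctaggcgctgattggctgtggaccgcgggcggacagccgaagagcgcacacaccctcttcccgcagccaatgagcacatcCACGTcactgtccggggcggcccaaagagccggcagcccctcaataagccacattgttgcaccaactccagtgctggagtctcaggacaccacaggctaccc
Car12: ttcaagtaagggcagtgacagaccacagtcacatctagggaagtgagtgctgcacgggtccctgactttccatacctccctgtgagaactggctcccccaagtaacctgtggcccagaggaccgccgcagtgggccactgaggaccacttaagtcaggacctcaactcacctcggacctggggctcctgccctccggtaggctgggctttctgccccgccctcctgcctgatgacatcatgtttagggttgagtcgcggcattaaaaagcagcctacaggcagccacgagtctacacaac

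The motif in the Car9 window was ACGTG on the reverse strand, so that CACGT is printed, and its first printed base lay 18 bases before the start. Egln3 had ACGTG 229 bases before the start, and Hk2 had it on the reverse strand 226 and 52 bases before. The Car12 window held neither spelling, which says only that these letters are not in this window. Of the 33 measured genes, 29 had a promoter in the table, and 25 of those held either spelling in at least 1 window. The other 4 were Car12, Eno2, Gpi1 and Tpi1. Among all 27025 genes of the table, 46.73% held either spelling and 21.78% held ACGTG, against 19 of the 29 members for ACGTG. The members were listed as HIF targets or genes of glycolysis, so their share cannot be read as a result of these data. The 29 members had 41 windows and the 27025 genes had 32851, and a gene with more windows has more chances of a match. A match of 5 letters is a description and not a binding site.

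Most of these genes differed little between matings, and most of the small differences were upward after Intact mating. Car9, a carbonic anhydrase on the cell surface, was 1.60-fold higher, Egln3, an oxygen-sensing hydroxylase, 1.46-fold higher and Hk2, the inducible hexokinase, 1.37-fold higher. Car12, a second surface carbonic anhydrase, went the other way and was 1.41-fold lower. None of the 33 genes passed limma's moderated test at an adjusted p of 0.05 over all clusters, where 34 clusters (0.0822%) passed, 0.0508% of all clusters being called higher and 0.0314% lower. Of the 27037 clusters with 1 gene symbol, which are closer in kind to the members, 0.111% were called, 0.0666% higher and 0.0444% lower. At an unadjusted p under 0.05 there were 5 higher members, Car9, Egln3, Hk2, Eno2 and P4ha1, and 1 lower, Car12. Across all clusters 5.13% were higher and 6.78% lower at that level, and across clusters with 1 symbol 5.61% and 6.47%. The 6 members became 10 without Intact replicate 3 (9 higher, 1 lower) and 4 without Intact replicate 4 (2 higher, 2 lower). They were also 4 without SVX/VAS replicate 1 or SVX/VAS replicate 4 (3 higher, 1 lower each). The share of all clusters at that level was not taken in these fits, so the changes cannot be called particular to the members. Adjusted calls over all clusters were 50 without Intact replicate 3 and 21 without Intact replicate 4, beside 34 with all arrays. The methods' t-test, as deposited, called 0 members after adjustment and put 8 under an unadjusted p of 0.05 (7 higher, 1 lower). The share of all clusters under the deposited p was not taken, and the shares above are limma's.

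By the submitters' criteria, a fold of at least 1.5 with an unadjusted p under 0.05, only Car9 qualified among the 33, while 0.9% of all clusters were higher and 1.57% lower by them, and 0.762% and 0.618% of those with 1 symbol. That count was 0 without SVX/VAS replicate 1 and 3 (Car9, Egln3 and Adm) without Intact replicate 3. The share of all clusters by these criteria was not taken in those fits. All 4 Intact arrays lay above all 4 SVX/VAS arrays for Car9, Egln3 and Hk1, and below them for Car12; 3.37% of all clusters had such separation upward and 4.81% downward, and 4.06% and 5.65% of those with 1 symbol. The sign was positive for 23 members and negative for 10. Their median log2 fold change (Intact minus SVX/VAS throughout) was 0.16, beside 0.0005 over all clusters, and it was 0.07 without Intact replicate 4.

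**Figure D1:**
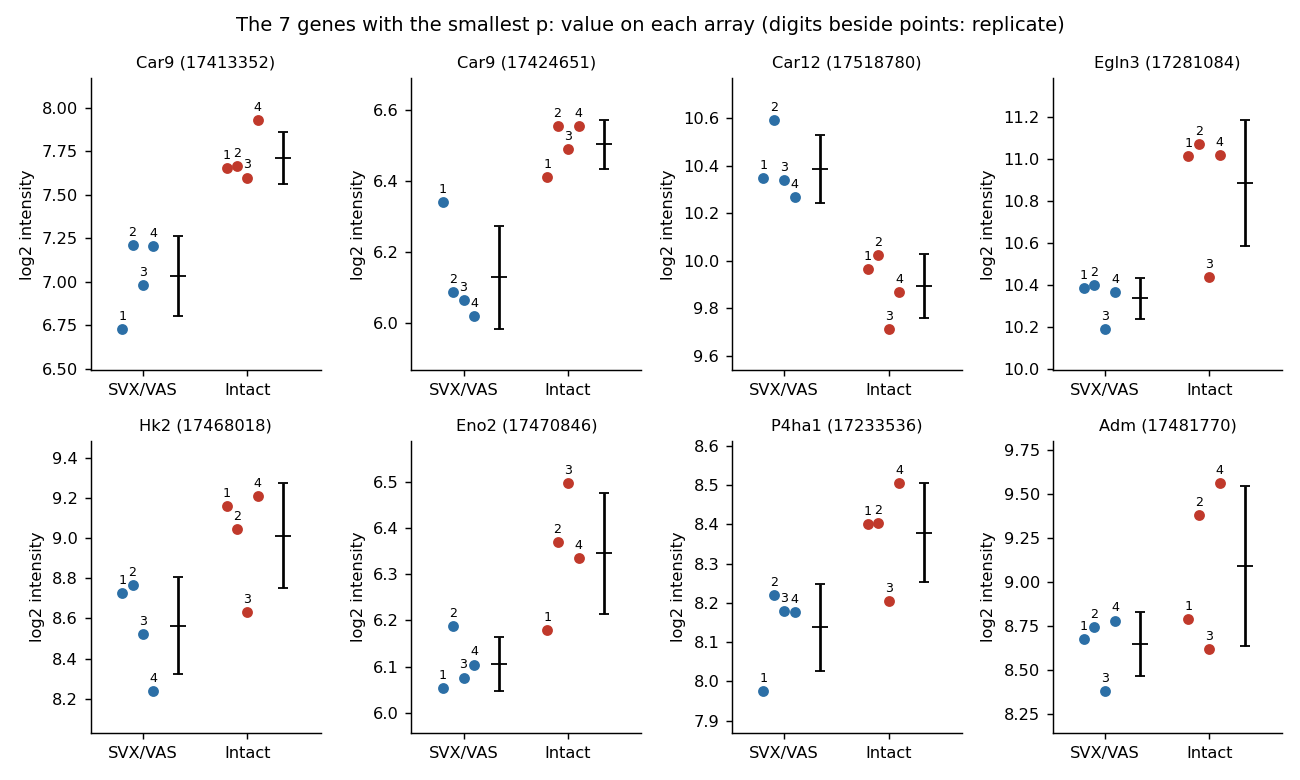
Log2 intensity on each of the 8 arrays (y axis) by group (x axis) for the 7 genes with the smallest p and the second Car9 cluster; points are arrays with their replicate number, and the bar beside each group is its mean ± SD (n = 4). Car9, Egln3 and Car12 show no overlap of the groups, and Intact replicate 3 lies at 10.44 for Egln3 while the other Intact arrays lie at 11.01 to 11.07.

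Hif1a encodes the oxygen-regulated alpha subunit of HIF-1. Its log2 intensity was 8.60, 8.55, 8.35 and 8.38 on Intact replicates 1 to 4 and 8.27, 8.21, 8.17 and 8.40 on SVX/VAS replicates 1 to 4. The groups overlapped, since SVX/VAS replicate 4 lay above Intact replicates 3 and 4. The log2 fold change was 0.21 (SE 0.10, adjusted p = 0.463). Its 2 further clusters, 17281911 and 17276348, gave log2 fold changes of 0.26 (SE 0.15) and 0.06 (SE 0.12). Cluster 17281911 measured 7.70, 7.30, 6.94 and 7.31 on the Intact arrays and 7.05, 7.10, 6.94 and 7.12 on the SVX/VAS arrays. Cluster 17276348 measured 5.91, 5.97, 5.60 and 5.66 on the Intact arrays and 5.83, 5.54, 5.72 and 5.82 on the SVX/VAS arrays. The groups overlapped on both, and Intact replicate 3 was the lowest Intact array on each. Epas1 encodes HIF-2 alpha, a subunit prominent in endothelium. It measured 8.91, 8.87, 8.48 and 9.12 on the Intact arrays and 8.81, 8.86, 8.68 and 8.87 on the SVX/VAS arrays. The highest and the lowest Epas1 values were both Intact arrays, replicates 4 and 3, and the log2 fold change was 0.04 (95% interval -0.27 to 0.35).

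EGLN enzymes hydroxylate HIF alpha subunits, and Egln1 and Egln3 are themselves HIF targets. Egln3 measured 11.01, 11.07, 10.44 and 11.02 on Intact replicates 1 to 4 and 10.39, 10.40, 10.19 and 10.37 on the SVX/VAS replicates. Of the Intact arrays 3 lay well above the SVX/VAS range and replicate 3 lay just above it. The log2 fold change was 0.55 (SE 0.15, 95% interval 0.21 to 0.89, adjusted p = 0.196). With 1 array left out it ran from 0.49 to 0.70, and limma's adjusted p from 0.0513 to 0.368. The values of 0.70 and 0.0513 were those without Intact replicate 3. Egln1, the main oxygen sensor of most cells, had means of 10.12 ± 0.18 and 10.25 ± 0.08 (SD, n = 4 each, Intact first), a log2 fold change of -0.13 (SE 0.11), and its groups overlapped.

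Among the enzymes that bring glucose into glycolysis, Hk2 measured 9.16, 9.05, 8.63 and 9.21 after Intact mating and 8.73, 8.77, 8.52 and 8.24 after SVX/VAS mating. Intact replicate 3 lay within the SVX/VAS range and the other 3 Intact arrays lay above it. The log2 fold change was 0.45 (SE 0.16, adjusted p = 0.323). Hk1, the housekeeping hexokinase, measured 6.73, 6.65, 6.66 and 6.73 on the Intact arrays and 6.38, 6.57, 6.59 and 6.54 on the SVX/VAS arrays. The Hk1 groups did not overlap, yet the difference was small, with a log2 fold change of 0.17 (SE 0.09, adjusted p = 0.478). Gpi1, glucose phosphate isomerase, showed a log2 fold change of 0.00 on both its clusters (SE 0.12 each), with a 95% interval of -0.27 to 0.27 on the representative. Its second cluster, 17498874, measured 8.67, 8.80, 8.64 and 8.98 on the Intact arrays and 8.80, 8.98, 8.66 and 8.66 on the SVX/VAS arrays, and the groups overlapped.

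The phosphofructokinases catalyse the committed step, and the PFKFB enzymes make and break the metabolite that activates them. Pfkfb4 measured 6.43, 6.09, 6.03 and 6.57 on the Intact arrays and 5.91, 6.09, 6.10 and 5.91 on the SVX/VAS arrays. Intact replicates 1 and 4 lay above the SVX/VAS range and replicates 2 and 3 within it, with a log2 fold change of 0.28 (SE 0.14, adjusted p = 0.472). Pfkfb3, the family member that inflammation induces in many cells, had a log2 fold change of 0.09 (SE 0.18), and its Intact arrays spread from 6.76 on replicate 3 to 7.68 on replicate 1. Of the phosphofructokinase subunits, Pfkp had 0.27 (SE 0.16), Pfkl 0.07 (SE 0.10) and Pfkm 0.00 (SE 0.15) on the log2 fold change scale. All 4 of these genes had overlapping groups.

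Aldolase splits the doubly phosphorylated hexose. Aldoc, the brain-type aldolase, measured 7.60, 7.65, 7.84 and 8.06 after Intact mating and 7.66, 7.63, 7.51 and 7.36 after SVX/VAS mating. Intact replicates 3 and 4 lay above the SVX/VAS range, and the log2 fold change was 0.25 (SE 0.13, adjusted p = 0.487). Aldoa, the widely expressed aldolase, had a log2 fold change of -0.10 (SE 0.12) and Tpi1, triosephosphate isomerase, -0.01 (SE 0.09). Gapdh, which carries out the oxidative step, was read by 3 clusters with log2 fold changes of 0.14, 0.23 and 0.08 (SE 0.13, 0.11 and 0.14). Cluster 17439361 measured 11.50, 11.68, 11.42 and 11.82 on the Intact arrays and 11.36, 11.48, 11.27 and 11.40 on the SVX/VAS arrays. Cluster 17546512 measured 7.75, 7.98, 7.67 and 8.18 on the Intact arrays and 7.62, 7.95, 7.73 and 7.95 on the SVX/VAS arrays. On both, Intact replicate 4 was the highest of the 8 arrays and Intact replicate 3 the lowest Intact array. Pgk1, which makes the first ATP of the pathway, had a log2 fold change of 0.16 (SE 0.11). Groups overlapped for each of Aldoc, Aldoa, Tpi1, Gapdh and Pgk1, so the steps from aldolase to phosphoglycerate kinase showed no separation of the matings.

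Pgam1, phosphoglycerate mutase, gave opposite signs on its 2 clusters. The representative, 17359466, measured 5.92, 6.26, 6.47 and 6.84 on the Intact arrays and 6.75, 6.94, 6.44 and 6.96 on the SVX/VAS arrays, a log2 fold change of -0.40 (SE 0.20, adjusted p = 0.474). The other cluster, 17404152, measured 9.12, 9.02, 8.76 and 9.16 on the Intact arrays and 8.63, 8.85, 8.75 and 8.66 on the SVX/VAS arrays, a log2 fold change of 0.29 (SE 0.11, adjusted p = 0.351). Both clusters had overlapping groups, so no direction can be given for Pgam1. Genes of glycolysis such as Pgam1, Gapdh, Eno1 and Ldha have many processed copies in the mouse genome, and which copies these probes read was not examined.

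Enolases make phosphoenolpyruvate. Eno2, the neuronal form and a HIF target, measured 6.18, 6.37, 6.50 and 6.33 on the Intact arrays and 6.05, 6.19, 6.08 and 6.10 on the SVX/VAS arrays. Only Intact replicate 1 lay within the SVX/VAS range, and the log2 fold change was 0.24 (SE 0.10, adjusted p = 0.368). Eno1, the widely expressed enolase, had a log2 fold change of -0.09 (SE 0.16) and Ldha, lactate dehydrogenase A, 0.02 (SE 0.13, 95% interval -0.27 to 0.30). Groups overlapped for both.

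The carriers move the pathway's substrate and product. Slc16a3, the lactate exporter MCT4, measured 7.98, 8.04, 7.54 and 8.50 after Intact mating and 7.72, 7.96, 7.48 and 7.43 after SVX/VAS mating. Its highest value was Intact replicate 4, Intact replicate 3 lay within the SVX/VAS range, and the log2 fold change was 0.37 (SE 0.20, adjusted p = 0.520). Slc2a1, the glucose carrier GLUT1, had log2 fold changes of 0.22 (SE 0.17) and 0.05 (SE 0.10) on its 2 clusters, and Slc2a3, the GLUT3 gene, -0.04 (SE 0.14). The second Slc2a1 cluster, 17429307, measured 5.77, 5.53, 5.86 and 5.79 on the Intact arrays and 5.70, 5.63, 5.75 and 5.68 on the SVX/VAS arrays, with Intact replicate 2 below every SVX/VAS array. None of the 3 carriers had groups that did not overlap.

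Carbonic anhydrases 9 and 12 interconvert carbon dioxide and bicarbonate at the cell surface, and their measured differences had opposite signs, neither past the adjusted threshold. Car9, placed on chromosome 4 in the deposited annotation, measured 7.65, 7.66, 7.60 and 7.93 on the Intact arrays and 6.73, 7.21, 6.98 and 7.21 on the SVX/VAS arrays. The lowest Intact array stood above the highest SVX/VAS array, with a log2 fold change of 0.68 (SE 0.13, 95% interval 0.37 to 0.98, adjusted p = 0.109). The second Car9 cluster, 17424651, measured 6.41, 6.55, 6.49 and 6.55 on the Intact arrays and 6.34, 6.09, 6.06 and 6.02 on the SVX/VAS arrays. It also showed no overlap, with a smaller log2 fold change of 0.38 (SE 0.10, adjusted p = 0.190). The representative Car9 cluster passed the adjusted threshold when limma was refitted on fewer clusters. Its adjusted p was 0.0437 over clusters with 1 gene symbol and 0.0398 over clusters above the median level. These refits also lowered its unadjusted limma p, from 0.000687 in the main test to 0.000308 and 0.000463. Over the other alternatives its adjusted p reached 0.255.

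Car12, on chromosome 9, measured 9.97, 10.03, 9.72 and 9.87 after Intact mating and 10.35, 10.59, 10.34 and 10.27 after SVX/VAS mating. Every Intact array lay below every SVX/VAS array, with a log2 fold change of -0.49 (SE 0.11, 95% interval -0.74 to -0.24, adjusted p = 0.143). In bulk tissue such as this, a lower value from fewer cells of a type and from less RNA per cell cannot be told apart.

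The remaining HIF targets were a mitochondrial kinase, 2 mitophagy receptors, 2 collagen-modifying enzymes, a peptide hormone and a stress protein. P4ha1, the catalytic subunit of collagen prolyl 4-hydroxylase, measured 8.40, 8.40, 8.21 and 8.51 on the Intact arrays and 7.98, 8.22, 8.18 and 8.18 on the SVX/VAS arrays. Intact replicate 3 lay within the SVX/VAS range, and the log2 fold change was 0.24 (SE 0.10, adjusted p = 0.399). P4ha2, its paralogue, had 0.18 (SE 0.16). Adm encodes adrenomedullin, a vasodilator peptide, and measured 8.79, 9.38, 8.62 and 9.56 after Intact mating and 8.68, 8.74, 8.38 and 8.78 after SVX/VAS mating. Adm was high on Intact replicates 2 and 4, lay just above the SVX/VAS range on replicate 1 and within it on replicate 3, with a log2 fold change of 0.44 (SE 0.21, adjusted p = 0.461). With 1 array left out the log2 fold change of Adm ran from 0.28 (without Intact replicate 4) to 0.60 (without Intact replicate 3).

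Pdk1, the kinase that switches off pyruvate dehydrogenase, had a log2 fold change of 0.21 (SE 0.12), and -0.03 (SE 0.19) on a second cluster, 17548205. That cluster measured 3.62, 2.88, 3.48 and 2.95 on the Intact arrays and 3.45, 2.98, 3.34 and 3.26 on the SVX/VAS arrays, and the Intact arrays lay on both sides of the SVX/VAS range. Bnip3 and Bnip3l, receptors for the removal of mitochondria, had log2 fold changes of 0.22 (SE 0.13) and 0.00 (SE 0.13). Ndrg1, a stress-responsive gene, had log2 fold changes of -0.23 (SE 0.19) and 0.08 (SE 0.25) on its 2 clusters. The second, 17317652, measured 9.80, 9.85, 9.29 and 10.49 on the Intact arrays and 9.88, 10.08, 9.37 and 9.77 on the SVX/VAS arrays, with the highest and the lowest value both in the Intact group. Groups overlapped for all of these, and for both Pdk1 and Ndrg1 the clusters differed in sign.

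**Figure D2:**
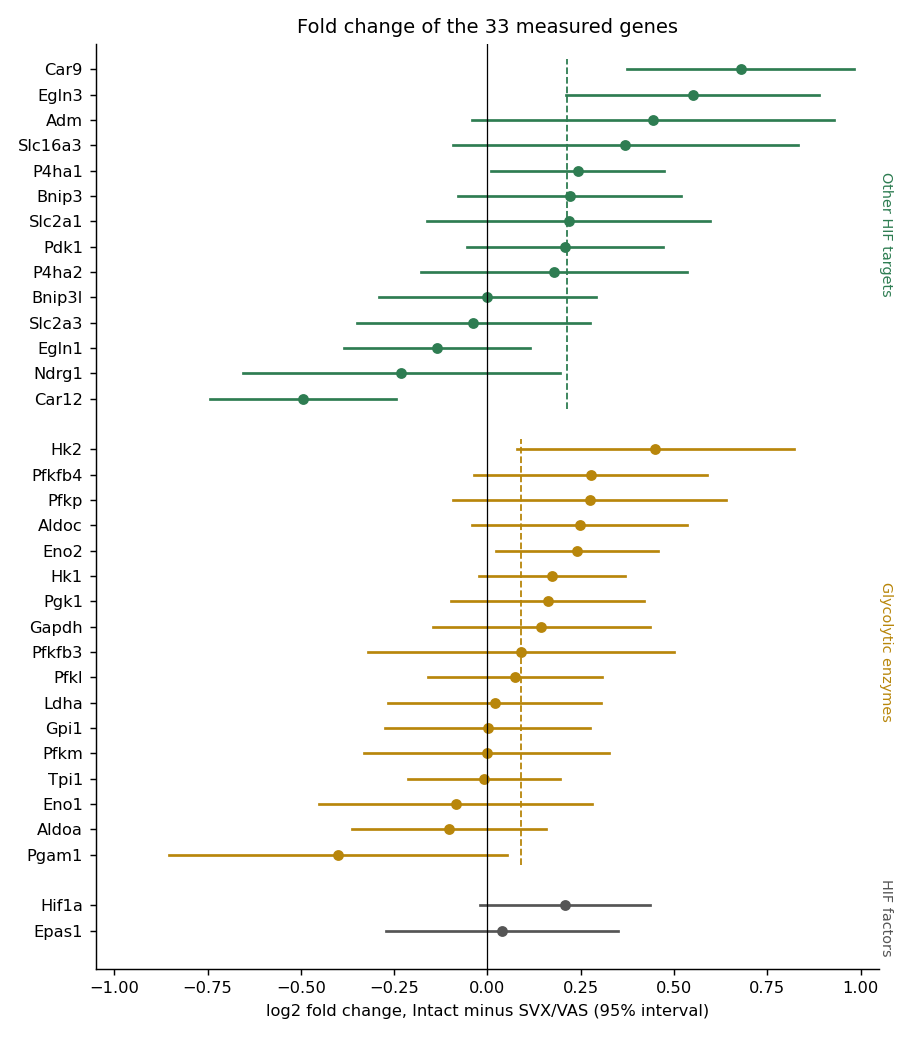
Log2 fold change, Intact minus SVX/VAS (x axis), of each of the 33 measured genes, with 95% intervals from limma's moderated test; colours separate HIF factors, glycolytic enzymes and other HIF targets, and dashed lines mark the medians of the latter classes, 0.09 and 0.21. Intervals of Car9, Egln3, P4ha1, Hk2 and Eno2 lie above 0 and that of Car12 lies below 0.

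Set side by side, the 17 glycolytic enzymes had a median log2 fold change of 0.09 and a range of -0.40 to 0.45, and the 14 other HIF targets had a median of 0.21 and a range of -0.49 to 0.68. Of the glycolytic enzymes 12 were positive and 5 negative, 2 were higher at an unadjusted p under 0.05 (Hk2 and Eno2) and 0 lower. Of the other targets 9 were positive and 5 negative, 3 were higher (Car9, Egln3 and P4ha1) and 1 lower (Car12). The range of the glycolytic enzymes lay within that of the other targets, and the difference between the classes was not tested. The low end of -0.40 was the Pgam1 representative, whose second cluster had 0.29, and the next lowest enzyme, Aldoa, had -0.10. Without Intact replicate 4 the medians were 0.03 and 0.09. Without Intact replicate 3 the glycolytic median was 0.18, and without Intact replicate 1 it was 0.06.

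The members also varied together from array to array within a mating. For each gene the deviation from its mean over all 8 arrays was taken, and the median deviation of the 14 other HIF targets was 0.00, 0.18, -0.20 and 0.33 on Intact replicates 1 to 4, and -0.12, -0.03, -0.21 and -0.06 on SVX/VAS replicates 1 to 4. For the glycolytic enzymes the medians were 0.01, 0.04, -0.10 and 0.22 on the Intact arrays and 0.00, 0.03, -0.13 and -0.13 on the SVX/VAS arrays. Intact replicate 3 therefore lay among the SVX/VAS arrays in both classes, and Intact replicate 4 stood highest. Within the Intact group, replicate 4 had the highest value for 24 of the 33 members and replicate 3 the lowest for 21, whereas these arrays held 26.4% of the highest and 27.3% of the lowest values over all clusters. Median deviations over all clusters stayed between -0.01 and 0.01.

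**Figure D3:**
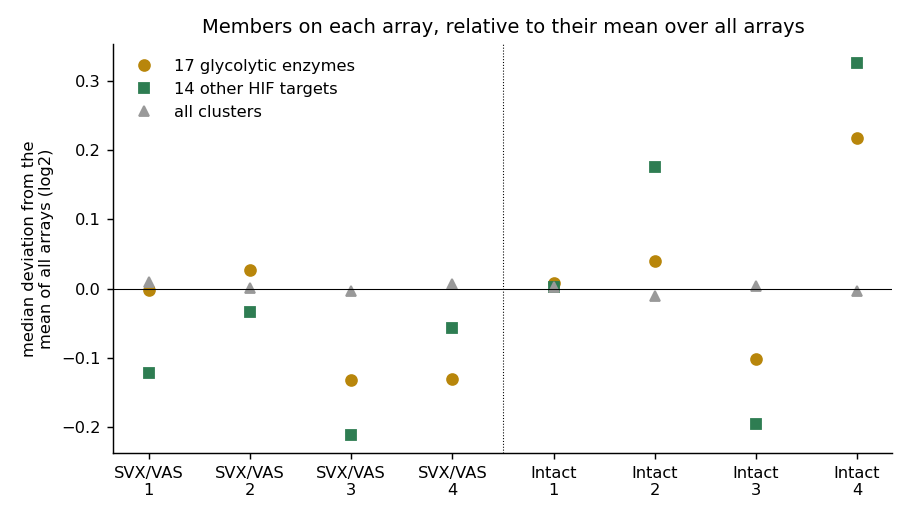
Median deviation (log2, y axis) of the 17 glycolytic enzymes, the 14 other HIF targets and all clusters from their mean over the 8 arrays, for each array (x axis). Both gene classes are highest on Intact replicate 4 and lie below 0 on Intact replicate 3, while all clusters stay near 0.

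Cell type markers were examined on the same arrays. All 10 epithelial and all 10 stromal markers lay above the median level of all clusters, as did 5 of 6 smooth muscle, 5 of 6 endothelial and 9 of 9 macrophage markers, but only 3 of 14 neutrophil and 1 of 5 red cell markers. The summed linear intensity of the epithelial markers was 9508 on Intact replicate 3 and 12676 on Intact replicate 4, the lowest and the highest of all arrays, with the SVX/VAS arrays at 10708 to 12187. All 10 stromal markers were lower after Intact mating, with a median log2 fold change of -0.24 and 0 past the adjusted threshold or an unadjusted p of 0.05. Stromal marker sums ran from 2885 to 5681 on the Intact arrays and from 3913 to 6302 on the SVX/VAS arrays. They were highest within each group on replicate 3 (5681 and 6302). Those arrays had the lowest value of their group for the most members, 21 and 15 of 33, beside 27.3% and 25.4% of all clusters. Endothelial sums had the same order at the top, with 665 on Intact replicate 3 and 595 on SVX/VAS replicate 3. The low end differed: stromal and endothelial sums were both lowest on Intact replicate 1, at 2885 and 325. There the members' median deviation was 0.01, while it was highest, at 0.25, on Intact replicate 4, with a stromal sum of 3900. The part of these markers in the members' values was not tested.

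Of the markers of neutrophils, cells that rely on glycolysis, 12 of 14 were positive, with a median log2 fold change of 0.12. Their sums were 441 to 538 on the Intact arrays and 428 to 455 on the SVX/VAS arrays, and 0 of the 14 passed limma's test after adjustment, with 2 higher and 1 lower at an unadjusted p under 0.05. The 2 higher were Cxcr2, 1.45-fold, and S100a8, 1.62-fold (log2 0.70, SE 0.27, adjusted p = 0.352), and the lower was Ly6g, 1.29-fold. S100a8 was dim, with mean log2 intensities of 3.40 and 2.70, below the median level of 5.37 over all clusters. Positive signs were also found for 6 of 6 smooth muscle markers, with a median log2 fold change of 0.11. Negative signs were found for 7 of 9 macrophage markers (median -0.07) and 5 of 6 endothelial markers (median -0.19). Macrophage sums overlapped between the groups, at 1814 to 2208 and 1873 to 2129, as did smooth muscle sums at 895 to 2188 and 1035 to 1849. Red cell sums were 181 to 291 and 158 to 206. Whether these cells contributed to the members' values was not tested.

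Other genes of the pathway were taken from lists written for this purpose with earlier results of these data known. Among 46 measured further HIF targets, 1 passed the adjusted threshold, Mif, a cytokine (macrophage migration inhibitory factor). Mif was 1.64-fold higher after Intact than after SVX/VAS mating (log2 0.71, SE 0.08, limma's adjusted p = 0.0325). Mif measured 10.69, 10.67, 10.73 and 10.80 on the Intact arrays and 10.05, 10.06, 10.01 and 9.91 on the SVX/VAS arrays, far apart beside the spread within each group. With any 1 array left out its log2 fold change stayed between 0.68 and 0.73, but the call held only without Intact replicate 3 (adjusted p = 0.0491) and was lost without any of the other 7 arrays (adjusted p up to 0.125). The list had a median log2 fold change of 0.08, with 7 higher and 2 lower at an unadjusted p under 0.05. Fam162a, a mitochondrial protein induced by HIF-1, measured 8.61, 8.87, 8.54 and 8.91 on the Intact arrays and 7.87, 7.94, 7.73 and 8.04 on the SVX/VAS arrays. Its groups were clearly apart, at 1.78-fold, with adjusted p = 0.0555. Bhlhe41, a circadian transcriptional repressor, was 1.39-fold lower without overlap (adjusted p = 0.227), and Narf was 1.37-fold lower with overlap (adjusted p = 0.255). These were the 2 lower genes at an unadjusted p under 0.05. The submitters' criteria were met by Mif, Fam162a and Acot7, an acyl-CoA thioesterase. Bhlhe41, Narf and Acot7 lie outside the 4 genes with the smallest p and are named after their values were seen. Tfrc, the transferrin receptor, was 1.34-fold higher and Sap30, a histone deacetylase complex subunit, 1.23-fold higher, both without overlap and neither past the adjusted threshold.

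Some further sugar and monocarboxylate carriers had larger measured differences than Slc2a1, Slc2a3 and Slc16a3, although 0 of the 18 passed limma's adjusted threshold and 4 were higher and 1 lower at an unadjusted p under 0.05. Slc16a7, the pyruvate and lactate carrier MCT2, measured 7.22, 7.57, 7.04 and 7.73 after Intact mating and 6.28, 6.54, 6.35 and 6.31 after SVX/VAS mating. The groups did not overlap, and it was 2.03-fold higher (log2 1.02, SE 0.16, adjusted p = 0.0568). Slc5a1, the sodium-glucose cotransporter SGLT1, measured 8.07, 8.47, 7.56 and 8.51 on the Intact arrays and 7.17, 7.27, 7.22 and 7.08 on the SVX/VAS arrays, 1.95-fold higher (SE of log2 0.20, adjusted p = 0.120). Slc2a6, the GLUT6 gene, was 1.67-fold higher (SE of log2 0.17, adjusted p = 0.143), also without overlap. Slc2a12, the GLUT12 gene, was 1.34-fold lower, again without overlap. On Intact replicate 3 each of Slc16a7, Slc5a1 and Slc2a6 had its lowest Intact value.

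The remaining lists had medians of either sign. Of 27 other genes of glycolysis and gluconeogenesis, with a median log2 fold change of 0.04, 0 passed the adjusted threshold, 2 were higher and 2 lower at an unadjusted p under 0.05. Pck2, the mitochondrial enzyme that makes phosphoenolpyruvate, was 1.51-fold lower (SE of log2 0.12, adjusted p = 0.108) and met the submitters' criteria. Bpgm, bisphosphoglycerate mutase, was 1.40-fold higher. Adpgk, an ADP-dependent glucokinase, was 1.19-fold higher and Pfkfb1, a PFKFB enzyme of liver and muscle, 1.18-fold lower. The groups did not overlap for Pck2, Bpgm and Adpgk, beside 3.37% of all clusters separated upward and 4.81% downward. Of 28 genes that take pyruvate into and round the mitochondrial citrate cycle, 19 were negative, the median was -0.08, and 1 was higher and 4 lower at an unadjusted p under 0.05, 0 after adjustment. Suclg2, a succinyl-CoA ligase subunit, was 1.25-fold lower, Sdha, the catalytic subunit of succinate dehydrogenase, 1.19-fold lower and Pdha1, the pyruvate dehydrogenase alpha subunit that PDK1 inhibits, 1.20-fold lower, whereas Idh3a, an isocitrate dehydrogenase subunit, was 1.26-fold higher. Separation of the groups was seen for Suclg2 and Sdha and not for Pdha1 and Idh3a.

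**Figure D4:**
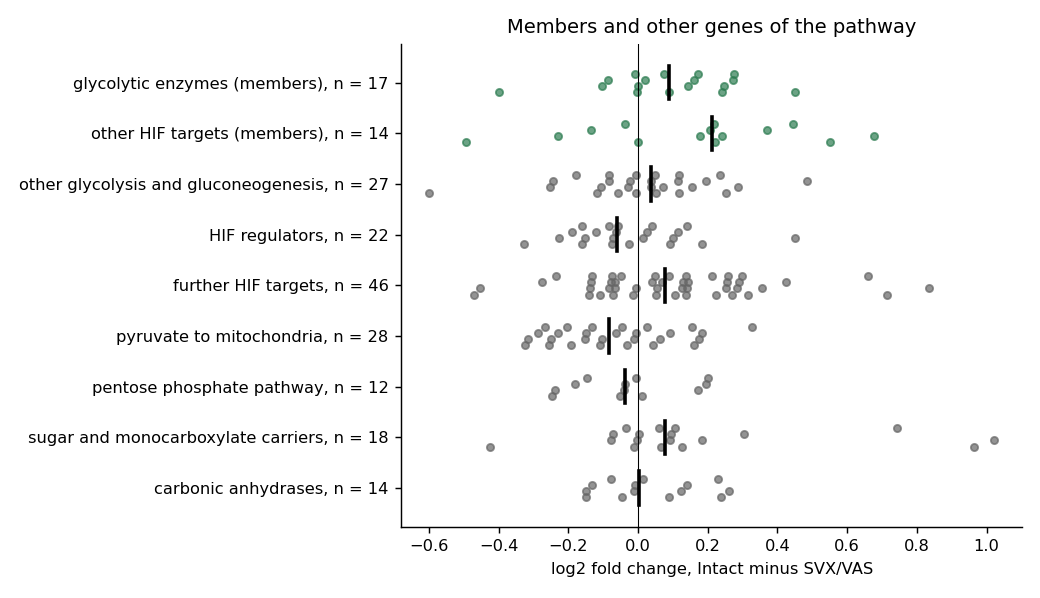
Log2 fold change, Intact minus SVX/VAS (x axis), of every measured gene in the 2 member classes (green) and the 7 other lists of the pathway (grey), with the median of each as a black bar. Slc16a7 and Slc5a1 at 1.02 and 0.96 lie farthest to the right, while the medians of all lists lie between -0.08 and 0.21.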

How the data were processed

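Log2 intensities of 8 arrays were analysed, 4 per group as the labels give, for 41345 transcript clusters, together with the authors' deposited table of the comparison. The authors' deposited log2 intensities were made from cel files in Partek 6.6 with RMA background correction, GC content correction and mean probe summarization, per the series text and the submitters' processing notes, which also name Affymetrix Expression Console. Normalization between arrays and the genome build are not given in the sources used here. Array medians ran from 5.35 to 5.41. The ratio deposited by the authors is Intact over SVX/VAS and the p-value they deposited is unadjusted, per the file headers. The score columns deposited by the authors are a signed fold change, F and sums of squares, per the file headers. Group means of the log2 values gave the deposited log2 ratios to within 6.0e-05, so scale and direction are settled.

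The main test was limma 3.58.1 in R 4.3.3 (lmFit and eBayes, no filter, two-sided), with Benjamini-Hochberg adjustment over all clusters. Intervals are 95%. Scripts were tested on simulated data. Values per array were given for Hif1a, Epas1, the 6 glycolytic enzymes and 6 other HIF targets with the smallest p and every second cluster of a member. Up to 4 genes of each further list were named by p, some with values per array, and exceptions are stated where they occur. Members and lists were chosen with earlier results of these data known. Older symbols were matched through RefSeq synonyms. Replicates are independent pools per the series text. Arrays limit the precision by their number. RMA keeps some background, which shrinks fold changes of dim clusters, and levels are not compared between genes, except that markers were counted above or below the median cluster as a rough check.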

Additional observations from a re-analysis of the deposited data

Results flagged for a closer look

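Of 86 groups of 4 arrays examined, 2 held an array far from the other 3, its gap to the nearest exceeding Dixon's 95% critical share of the group's range. Chance gives about 1 in 20 groups. For Egln3, Intact replicate 3 measured 10.44 while the other Intact arrays lay at 11.01 to 11.07, a gap of 0.906 of the range. For Tpi1, SVX/VAS replicate 4 measured 10.55 while the other SVX/VAS arrays lay close together, from 10.61 to 10.62, a gap of 0.855 of a narrow range.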

How the results depend on the processing

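Over all clusters the main test called 34, 21 higher and 13 lower. The calls were 0 with the replicate block, 54 (38 higher) with quantile normalization, 10 (8 higher, 2 lower) by the methods' t-test, 204 (82 higher, 122 lower) with a variance trend, 234 (114 higher, 120 lower) over clusters with 1 gene symbol and 358 (144 higher, 214 lower) over clusters above the median level. Leaving out 1 array gave 2 to 50 calls, 2 to 41 higher and 0 to 10 lower. Among the members 0 were called in the main test, in every leave-one-out fit and in the other alternatives, except that Car9 made it 1 over clusters with 1 gene symbol and 1 over clusters above the median level. The submitters' criteria held 0 to 3 members with 1 array left out, and 0 when clusters of a gene were averaged, since the Car9 mean then lay under 1.5-fold. With 1 array left out the median log2 fold change ran from 0.07 to 0.20 for the members, 0.03 to 0.18 for the glycolytic enzymes and 0.09 to 0.28 for the other HIF targets. The other alternatives gave medians within these ranges, including 0.14 for the glycolytic enzymes when the cluster with the highest level stood for a gene, a choice made after seeing the data. Gpi1, Pfkm and Bnip3l, at 0.00, have no settled sign. Signs also turned in leave-one-out fits for other values near 0: Eno1 (-0.21 to 0.0214), Epas1 (-0.0524 to 0.16), Ldha (-0.0440 to 0.11), Pfkfb3 (-0.0346 to 0.27), Slc2a3 (-0.15 to 0.0442), Tpi1 (-0.0562 to 0.0341), the Gapdh cluster 17546512 (-0.0118 to 0.16), the second Ndrg1 cluster (-0.13 to 0.27) and the second Pdk1 cluster (-0.16 to 0.0906). No pairing by replicate number was seen: deviations of same-numbered arrays correlated at 0.068, 0.026, -0.021 and -0.033 for numbers 1 to 4. Of the Intact arrays, only replicate 1 correlated best with its own number. With 4 arrays per group these values cannot exclude a pairing. The block changed no call of a member, and Mif was not called with it (adjusted p = 0.208).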

Other observations

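Regulators of HIF had a median log2 fold change of -0.06 over 22 genes, 9 positive and 13 negative, with 0 past limma's adjusted threshold and 1 higher and 2 lower at an unadjusted p under 0.05. Tceb2, the elongin B gene of the complex that degrades HIF alpha subunits, was 1.37-fold higher, at 10.33, 10.40, 10.23 and 10.18 on the Intact arrays and 9.73, 9.79, 9.69 and 10.12 on the SVX/VAS arrays, without overlap (adjusted p = 0.180). Hif1an, an asparagine hydroxylase that restrains HIF, was 1.25-fold lower, Gnb2l1, the RACK1 gene, 1.14-fold lower and the chaperone gene Hsp90ab1 1.17-fold lower. Of the 22 regulators, 1 had groups separated upward (Tceb2) and 3 downward, Gnb2l1 among them. Over all clusters 3.37% were separated upward and 4.81% downward.

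The other 14 carbonic anhydrase genes had a median log2 fold change of 0.00, and 0 were past an unadjusted p of 0.05 or limma's adjusted threshold in either direction. Car13 (1.17-fold higher), Car1 (1.20-fold higher), Car5a (1.18-fold higher) and Car15 (1.11-fold lower) had the smallest p. Of 12 pentose phosphate pathway genes 8 were negative, with a median of -0.04, and 0 were past an unadjusted p of 0.05 or the adjusted threshold. Taldo1, transaldolase, was 1.13-fold lower without overlap of the groups, G6pdx, the first enzyme of that pathway, 1.18-fold lower, Prps2 1.19-fold lower and Pgls 1.13-fold higher.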
